A study of Lepidium sativum with 107 samples.

Results

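A set of 196 transcripts peaked at 3 h after sowing in the micropylar endosperm of germinating garden cress (Lepidium sativum) seeds. A transcript belonged to the set when its mean log2 level in micropylar endosperm was at least 1 unit (2-fold) higher at 3 h than at 1 h, and at least 1 unit higher at 3 h than at 7 h with the testa intact. These 196 came from 13848 probe sets that the rule could choose, after 47 mitochondrial loci were set aside. The set was chosen by the measured levels in micropylar endosperm at 1 h, 3 h and intact 7 h. Those levels are therefore given as a description without a test, and the tests below use the other stages and tissues.

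The micropylar endosperm is the cap of living endosperm over the radicle tip, and it must weaken before the radicle can emerge. In cress the testa splits first and the endosperm later, so the stages around each rupture can be collected apart. During the first hours of imbibition, stored transcripts are replaced by newly made ones. Abscisic acid (ABA) holds germination back, gibberellin releases it, and nitrate is a known signal that lowers ABA in seeds of Arabidopsis.

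RNA was measured on 107 single-colour arrays in 27 groups by tissue and stage, with 4 arrays in 26 groups and 3 in 1 group. Seeds of the line FR14 were kept on water at 24 °C in continuous light, with no other treatment, and dissected into parts. Micropylar endosperm and radicle with lower hypocotyl (called radicle below) were each sampled at 1, 3, 5, 7, 10, 13 and 16 h, at 7 h with the testa intact or ruptured and at 16 h with the endosperm intact or ruptured. The 3, 7 and 13 h stages were also taken from non-micropylar endosperm and from cotyledons, the 7 h samples being titled as not ruptured, and dry tissue was taken as whole seed, as radicle with cap, and as the rest. Each sample pooled 100 organs (50 for cotyledons), and the labels do not say whether replicates came from separate seed batches. A p-value here therefore reflects no more than sample-to-sample spread, part or all of which may be technical. Precision is limited by how many arrays each group has.

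All values are log2 levels, and a difference of 1 is a 2-fold change. The error after a level is the SD over arrays, and the error after a change is the standard error (SE) of the limma fit. Levels below 3.59, the limit under which 25% of group means lie, were not clearly above background, and changes that start or end there are written as at least. A change passed the test at a limma adjusted p under 0.05 over all 13895 probe sets. In whole tissue samples, fewer cells of a type and less RNA per cell cannot be told apart. Probe sets carry Arabidopsis locus codes, so roles given below are those known for the Arabidopsis genes. Of the 196 transcripts, 28 carried a symbol from the gene lists used here and 168 did not.

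The tissue labels were checked on marker genes. EPR1, a cell wall protein gene of the endosperm, had group means of 4.94 to 9.42 in micropylar endosperm and 6.11 to 8.08 in non-micropylar endosperm, against 3.87 to 4.57 in radicle and 3.90 to 4.21 in cotyledons. FIL, a leaf polarity gene, ranged from 5.10 to 6.48 in cotyledons and from 3.35 to 3.74 in micropylar endosperm. It does not stand for its whole list of 6 measured markers. At 3 h, 2 of the 6 were lower in non-micropylar endosperm than in cotyledons by the limma test and 0 higher, with a median difference of -0.22. PIN2, an auxin exporter of the root, was under the limit in micropylar endosperm at 1 h (3.40) and 3 h (3.21), which by itself does not check a label. Over the 3 stages of the rule, EPR1 fell from 9.42 to 7.26 and then 6.48 in micropylar endosperm, without the rise that defines the set. The mean of the 7 measured root and root cap markers (of 9 listed) ran from 3.68 to 3.90 over the arrays at 1 h and from 3.48 to 3.85 at 3 h. The 6 measured cotyledon markers (of 7 listed) ran from 3.66 to 3.82 and from 3.54 to 3.64. The 4 measured seed coat markers (of 8 listed) ran from 3.86 to 3.99 at 1 h and from 4.02 to 4.24 at 3 h.

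In micropylar endosperm the set rose by a median of 1.72 from 1 h to 3 h, with a range of 1.01 to 5.73. It was a median of 1.30 higher at 3 h than at intact 7 h, with a range of 1.00 to 3.57. The rise was at least 2 units for 75 transcripts, the fall for 22, and both for 15. The largest peaks, taking the smaller of rise and fall, belonged to AT2G13610 and AT3G46600, codes without a symbol in the lists. AT2G13610 read 3.57, 3.30, 3.74 and 3.60 on the arrays at 1 h, then 7.70, 7.13, 7.70 and 7.44 at 3 h, and 3.77, 4.12, 3.76 and 4.04 at intact 7 h. AT3G46600 read 4.03 to 4.33 at 1 h, 7.14 to 7.89 at 3 h and 3.57 to 4.94 at intact 7 h. The 3 h arrays stood clear of both other stages for these transcripts. At the edge of the rule, the last transcripts inside had peaks of 1.01 and 1.00 and the first outside had 0.995 and 0.994. The closest outside with a symbol was SZF1, a zinc finger gene of salt stress, at 4.35, 7.11 and 6.12 in the 3 stages.

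**Figure D1:**
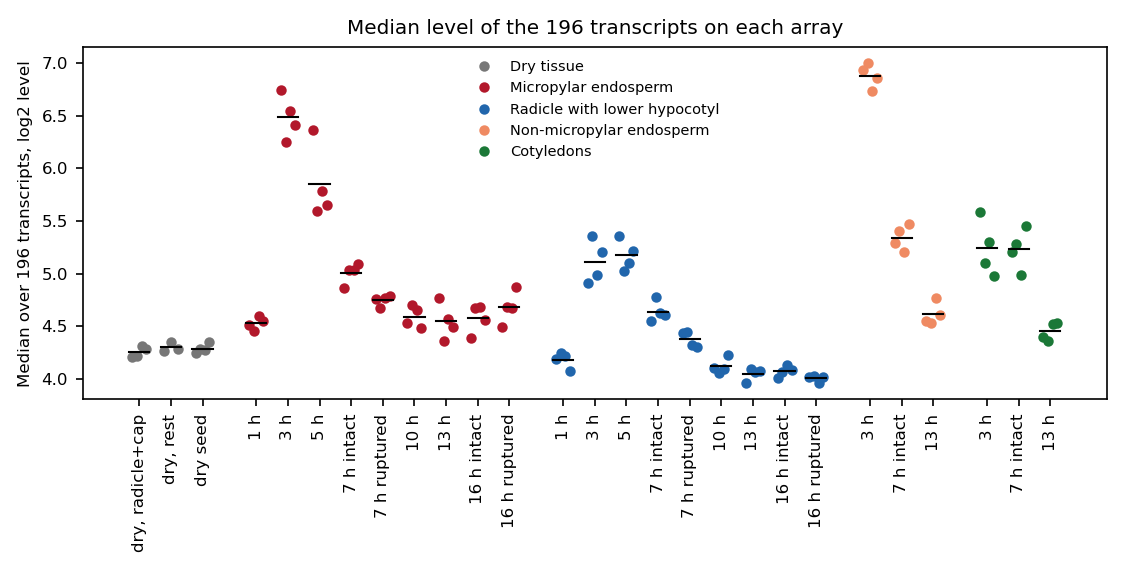
Median log2 level of the 196 transcripts on each array (points) with the mean of each group (bars), by tissue and stage. The micropylar endosperm arrays at 1 h, 3 h and intact 7 h chose the set; among the other groups the non-micropylar endosperm at 3 h stands highest, at 6.88.

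The rise to 3 h and the fall to intact 7 h were fixed by the rule, and no stage lay between 1 h and 3 h. The median over the set, averaged over arrays, was 4.53 ± 0.06 (SD, n = 4) at 1 h, 6.49 ± 0.21 at 3 h, 5.85 ± 0.35 at 5 h and 5.01 ± 0.10 at intact 7 h. It then stayed between 4.55 and 4.75 in the 5 later groups. At 5 h the first array stood apart, at 6.36 against 5.59 to 5.79 on the other arrays. At 5 h, 110 of the 196 were still at least 1 unit over their 1 h level. At 7 h with a ruptured testa, 81 were at or below it. The 1 h level helped to choose the set, so both counts are a description only. The set was low in dry tissue, with medians of 4.25 in radicle with cap, 4.30 in the rest and 4.29 in whole seed.

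Members with a symbol were spread over 18 of the 42 lists, and 6 lists held more than 1. For scale, 1.42% of all eligible probe sets (196 of 13848) belonged to the set, and no list was tested for enrichment. The lists were written by hand and do not hold whole gene families. Counts per list, here and below, therefore leave out any of the 168 members without a symbol that are genes of the same kind. ABA genes gave 4 of 39 measured: the 3 hydroxylases CYP707A1, CYP707A2 and CYP707A3, which inactivate ABA, and HAI3, a protein phosphatase of ABA signalling. Touch and zinc finger stress genes gave 3 of 12 (SZF2, AZF2 and ZAT12), and defence genes 3 of 35 (the salicylic acid receptor NPR3, the kinase MKK4 and the bacterial peptide receptor EFR). WRKY factors gave 2 of 23 (WRKY11 and WRKY3), clock genes 2 of 26 (LNK3 and the light-sensing F-box protein LKP2), and nutrient genes 2 of 27. The last were NIA1, a nitrate reductase, and NIR1, the nitrite reductase that acts after it.

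The ABA hydroxylases differed in how far the peak reached beyond the micropylar endosperm. CYP707A3 in micropylar endosperm read 3.81, 3.43, 3.77 and 3.74 at 1 h, 8.16, 7.95, 7.81 and 8.02 at 3 h, and 6.01, 5.89, 5.87 and 5.71 at intact 7 h. In the radicle it read 3.33, 3.55, 3.66 and 3.65 at 1 h, then 7.99, 7.88, 7.34 and 8.03 at 3 h. The radicle groups did not overlap, and the rise was at least 4.26 ± 0.27 (SE; adjusted p = 9.84e-24), the largest among the members with a symbol. From 3 h to 7 h CYP707A3 fell by 1.57 in radicle (adjusted p = 5.54e-06), by 2.42 in non-micropylar endosperm (adjusted p = 3.98e-12) and by 0.78 in cotyledons (adjusted p = 0.0396). At 3 h its levels lay close together in the 4 tissues, from 7.81 ± 0.32 in radicle to 8.20 ± 0.13 in non-micropylar endosperm.

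CYP707A2, the hydroxylase best known from germinating Arabidopsis seeds, behaved otherwise. It averaged 4.73, 6.99 and 5.96 in micropylar endosperm at 1 h, 3 h and intact 7 h. In non-micropylar endosperm it read 6.94, 6.90, 6.98 and 7.19 at 3 h and 6.99, 7.23, 7.10 and 7.14 at 7 h, groups that overlapped. It fell there later, by 2.41 ± 0.26 from 7 h to 13 h (adjusted p = 3.12e-12). Neither radicle nor cotyledons gave a change from 3 h to 7 h that passed the test (-0.53 and 0.31). The highest group mean of CYP707A2 was 7.49, in cotyledons at 7 h. CYP707A1 averaged 4.05, 5.27 and 4.23 in micropylar endosperm at 1 h, 3 h and intact 7 h. It averaged 4.71 there at ruptured 7 h and 5.34 at 10 h, and it did not pass as higher between these stages. The step from intact 7 h to 10 h was not tested. In non-micropylar endosperm CYP707A1 averaged 5.93 ± 0.62 at 3 h and 4.63 ± 0.24 at 7 h, a fall of 1.30 (adjusted p = 4.63e-06). It stood at 4.04 ± 0.12 in cotyledons at 3 h, 1.89 lower than in non-micropylar endosperm (adjusted p = 1.7e-10).

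HAI3 read 7.82, 7.33, 7.89 and 7.41 in non-micropylar endosperm at 3 h and 5.09, 5.85, 5.39 and 5.77 at 7 h, and it fell by 2.09 ± 0.30 (adjusted p = 1.23e-08). In micropylar endosperm at 3 h its arrays were spread, at 7.77, 6.08, 7.25 and 6.25. The other 35 measured ABA genes gave 11 that fell and 4 that rose from 3 h to 7 h in non-micropylar endosperm, where 15.9% of all probe sets fell and 16% rose. In the radicle from 1 h to 3 h, 10 of them rose and 4 fell, against 9.93% and 12.9% of all probe sets. ABI3, the seed maturation regulator, was outside the set because it did not fall: it averaged 4.59, 5.98 and 6.17 in micropylar endosperm at 1 h, 3 h and intact 7 h.

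RGL2, a DELLA protein that represses gibberellin responses and germination, was the member among the 32 measured genes on the gibberellin list. In micropylar endosperm it read 5.22, 6.00, 6.14 and 5.71 at 1 h, 9.84, 9.69, 9.66 and 9.61 at 3 h, and 8.65, 8.23, 8.70 and 8.59 at intact 7 h. It went on falling in that tissue, by 1.60 from 5 h to ruptured 7 h (adjusted p = 4.72e-10), then by 0.84 to 10 h (adjusted p = 0.0055). The fall to 10 h did not pass with the arrays of that comparison alone or without replicate 3 of the ruptured 7 h group. In the radicle RGL2 rose by 2.42 ± 0.20 from 1 h to 3 h (adjusted p = 3.11e-17), averaged 9.15 at 5 h, and its change from 3 h to 7 h did not pass (0.18).

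The nitrate assimilation pair from the nutrient list differed from each other in the radicle. NIA1 read 3.76, 4.07, 3.86 and 3.82 in micropylar endosperm at 1 h and 8.11, 6.86, 8.41 and 7.47 at 3 h. In the radicle it read 4.26, 3.63, 4.35 and 4.00 at 1 h and 4.11, 3.99, 4.21 and 4.39 at 3 h. The radicle groups overlapped, and the change of 0.11 did not pass the test. In non-micropylar endosperm NIA1 averaged 7.92 ± 0.48 at 3 h, 3.20 ± 0.23 (SE) above cotyledons (adjusted p = 6.97e-21), and its change to 7 h did not pass (-0.35). It fell by 1.58 from 7 h to 13 h there (adjusted p = 5.38e-08).

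NIR1 rose in the radicle as well, from 3.26, 3.66, 3.50 and 3.44 at 1 h to 6.26, 6.56, 5.97 and 6.51 at 3 h, by at least 2.86 ± 0.19 (adjusted p = 1.45e-22). It fell by 1.07 in the radicle from 3 h to 7 h (adjusted p = 9.69e-06), while non-micropylar endosperm averaged 8.15 at both times. That difference between the tissues was 1.06 ± 0.27 (adjusted p = 0.00423), and NIR1 was the single member whose fall was larger in radicle than in non-micropylar endosperm by this test. NIA2, the other nitrate reductase gene, stayed under the limit in micropylar endosperm, at 3.14, 3.26 and 3.50 in the 3 stages. Of the other 25 measured genes on the nutrient list, 4 rose and 5 fell from 3 h to 7 h in non-micropylar endosperm. These counts were near the 16% and 15.9% of all probe sets.

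BEE2, a basic helix-loop-helix factor induced by brassinosteroid, had the largest rise of the set. It read 3.87, 3.56, 4.20 and 3.76 in micropylar endosperm at 1 h, 9.38, 9.90, 9.02 and 10.02 at 3 h, and 6.65, 7.81, 7.59 and 6.88 at intact 7 h. Non-micropylar endosperm read 10.70, 10.89, 10.53 and 10.46 at 3 h, against 3.72, 3.19, 3.66 and 3.43 in cotyledons, a difference of at least 7.14 ± 0.19 (adjusted p = 9.99e-51). The radicle was under the limit at 1, 3, 5 and 7 h, with means of 3.22 to 3.40. BEE2 fell by 2.30 from 3 h to 7 h in non-micropylar endosperm (adjusted p = 1.09e-17) and by 3.31 more to 13 h (adjusted p = 2.75e-26). TGA10, a bZIP factor, showed a like division of tissues. It averaged 6.49 in non-micropylar endosperm at 3 h and 3.69 in cotyledons, 2.80 apart (adjusted p = 3.28e-22), and 3.25 to 3.63 in radicle from 1 h to 7 h.

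**Figure D2:**
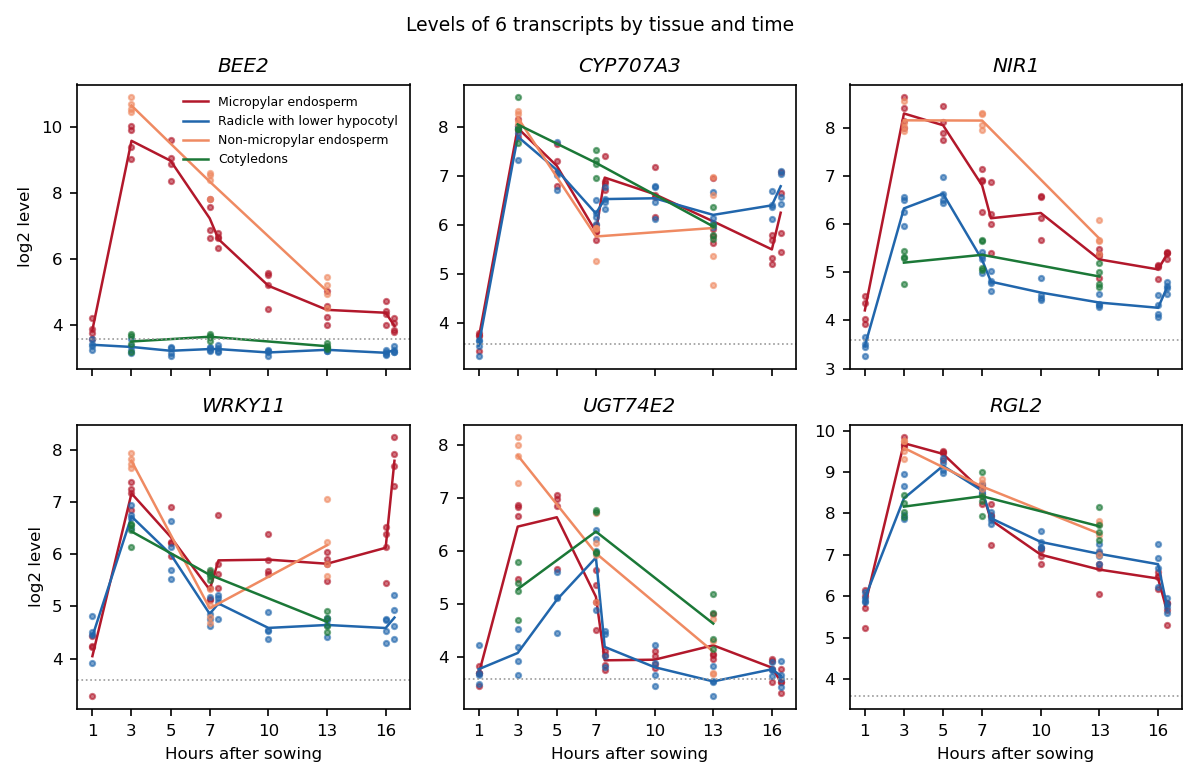
Log2 level of 6 transcripts against hours after sowing in 4 tissues, with a point for each array and lines through the group means. Samples with a ruptured testa or endosperm are drawn just to the right of the intact ones, and the dotted line is the limit of 3.59. BEE2 stays near or under the limit in radicle and cotyledons, whereas CYP707A3 is close to 8 in all 4 tissues at 3 h.

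Of the stress and defence regulators with a symbol, WRKY11, WRKY3 and ZAT12 rose and then fell in the radicle. WRKY11, a regulator of basal defence, read 3.91, 4.46, 4.52 and 4.81 in radicle at 1 h, 6.70, 6.75, 6.51 and 6.94 at 3 h, and 4.77, 5.17, 4.86 and 4.63 at intact 7 h. It rose by 2.30 ± 0.24 (adjusted p = 5.13e-13) and then fell by 1.87 ± 0.24 (adjusted p = 2.33e-09). It also fell by 2.83 in non-micropylar endosperm (adjusted p = 1.79e-17) and by 0.83 in cotyledons (adjusted p = 0.00906). WRKY3 rose by 0.65 in radicle from 1 h to 3 h (adjusted p = 0.00698) and fell in the same 3 tissues to 7 h, by 0.64, 2.00 and 0.88. Of the other 21 measured WRKY factors on the list, 5 fell and 0 rose from 3 h to 7 h in non-micropylar endosperm. Over all probe sets, 15.9% fell and 16% rose.

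ZAT12, a zinc finger gene of oxidative stress, rose by 2.60 ± 0.30 in radicle from 1 h to 3 h (adjusted p = 1.93e-11) and fell by 1.66 to 7 h (adjusted p = 1.02e-05). AZF2, a zinc finger repressor, read 7.59, 6.99, 6.71 and 7.23 in non-micropylar endosperm at 3 h and 5.33, 4.49, 3.70 and 4.68 at 7 h. It fell there by 2.58 ± 0.27 (adjusted p = 4.07e-13), in cotyledons by 1.15 (adjusted p = 0.00121), and in radicle by at least 0.75 (adjusted p = 0.038). SZF2, a relative of SZF1, fell by 2.48 ± 0.19 in non-micropylar endosperm (adjusted p = 3.93e-20), while the cotyledon change of 0.35 did not pass. Its second radicle array stood apart at 3 h, at 4.97 against 4.01 to 4.16. The other 9 measured genes of the touch and zinc finger list gave 2 that fell and 0 that rose in non-micropylar endosperm, against the same shares.

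NPR3 rose in radicle by at least 1.59 (adjusted p = 1.23e-07), and from 3 h to 7 h it fell by 1.70 in non-micropylar endosperm (adjusted p = 6.88e-09) but rose by 0.85 in cotyledons (adjusted p = 0.00722). The cotyledon rise was 0.67 and did not pass without replicate 3 at 7 h. EFR fell by 1.59 in non-micropylar endosperm (adjusted p = 9.73e-09) and MKK4 by 0.92 (adjusted p = 4.37e-05). Of the other 32 measured defence genes, 6 fell and 2 rose there, against 15.9% and 16% of all probe sets.

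Among members with a symbol, the clock gene LNK3 had the largest difference between non-micropylar endosperm and cotyledons in the change from 3 h to 7 h. It read 7.18, 7.16, 6.53 and 6.80 in non-micropylar endosperm at 3 h and 4.27, 4.48, 4.30 and 4.55 at 7 h. Cotyledons read 6.96, 7.28, 6.93 and 7.24 at 3 h and 7.87, 8.03, 7.29 and 7.25 at 7 h. LNK3 was thus level in both tissues at 3 h (difference -0.19, not passing), and its change to 7 h differed by -3.02 ± 0.31 between them (adjusted p = 2.04e-12). In cotyledons it fell later, by 3.65 from 7 h to 13 h (adjusted p = 4.03e-24). LKP2 fell from 3 h to 7 h by 1.76 in non-micropylar endosperm (adjusted p = 5.6e-09) and by 0.91 in radicle (adjusted p = 0.0036). Of the other 24 measured clock genes, 6 rose and 5 fell in non-micropylar endosperm, against 16% and 15.9% of all probe sets.

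Hormone and metabolism genes outside these lists showed further patterns. UGT74E2, a glucosyltransferase of indole-butyric acid, read 3.93, 4.19, 4.52 and 3.66 in radicle at 3 h and 6.23, 6.39, 5.99 and 4.88 at intact 7 h, a rise of 1.80 ± 0.29 (adjusted p = 1.13e-06). In non-micropylar endosperm it read 7.79, 8.14, 7.28 and 7.99 at 3 h and 6.15, 5.04, 5.92 and 6.72 at 7 h, a fall of 1.84 (adjusted p = 1.54e-07). The change differed by -3.64 ± 0.41 between these tissues (adjusted p = 7.1e-11). ARR7, a response regulator that damps cytokinin signalling, read 7.41, 6.86, 7.02 and 6.86 in non-micropylar endosperm at 3 h and 3.81, 3.81, 3.74 and 3.69 at 7 h. That fall of 3.28 ± 0.30 (adjusted p = 6.41e-16) was the largest among members with a symbol. Its cotyledon arrays were widely spread, at 6.32, 6.46, 6.90 and 4.18 at 3 h.

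F5H, a ferulate hydroxylase of lignin synthesis, averaged 3.70, 6.31 and 3.98 in micropylar endosperm at 1 h, 3 h and intact 7 h. It fell in non-micropylar endosperm by 1.64 (adjusted p = 7.98e-13). BZIP28, a membrane-bound factor of the unfolded protein response, rose in radicle from 4.94, 5.90, 5.47 and 4.67 at 1 h to 6.89, 8.23, 7.15 and 7.55 at 3 h, by 2.21 ± 0.29 (adjusted p = 1.6e-09). Of the other 9 measured genes of protein folding in the endoplasmic reticulum, 1 rose and 6 fell in the same comparison, against 9.93% and 12.9% of all probe sets. VNI2, a NAC repressor, fell by 2.17 in non-micropylar endosperm from 3 h to 7 h (adjusted p = 4.85e-12). In micropylar endosperm VNI2 stayed well above its 1 h mean of 3.38, at 7.17 at 3 h, 6.01 at intact 7 h and 6.95 at 10 h. HSP23.6, a mitochondrial small heat shock protein, rose by 1.66 in radicle from 1 h to 3 h (adjusted p = 2.3e-10), and 6 of the other 10 measured small heat shock genes rose there too, against 9.93% of all probe sets. The ethylene signalling F-box gene EBF2 and the auxin receptor AFB3 fell in non-micropylar endosperm from 3 h to 7 h by 1.02 (adjusted p = 9.15e-05) and 0.75 (adjusted p = 0.0014). ERF107, an ethylene response factor, fell by 0.76 there (adjusted p = 0.00504) and rose by 1.40 in cotyledons (adjusted p = 9.62e-07).

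Across the whole set, the radicle rose with the micropylar endosperm between 1 h and 3 h. In radicle 124 of the 196 (63.3%) rose, against 9.93% of all probe sets, and 0 fell by the limma test, against 12.9% of all probe sets. At an unadjusted p under 0.05, 143 were higher and 0 lower. The median change was 0.73, against -0.03 over all probe sets. A rise of at least 1 unit occurred in 65 (33.2%), against 2.3% of all probe sets. The endosperm marker EPR1 fell in radicle, from 4.57 at 1 h to 3.92 at 3 h, and it fell in micropylar endosperm over these hours too. Any part of cap tissue in the radicle rise was not tested. The members' medians per radicle array did not overlap, at 4.07 to 4.25 at 1 h and 4.91 to 5.36 at 3 h.

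The radicle held its level from 3 h to 5 h. Its median was 5.11 ± 0.20 at 3 h, 5.18 ± 0.14 at 5 h and 4.64 ± 0.09 at intact 7 h. Of its 9 stages, 88 members (44.9%) were highest at 3 h and 80 (40.8%) at 5 h, against 14.7% and 9.09% of all probe sets. From 3 h to intact 7 h, 59 (30.1%) fell, against 10.1% of all probe sets, and 2 rose, against 10.3%, or 20.3% in either direction. UGT74E2 was 1 of the 2 that rose, and the other has no listed symbol. A rise followed by a fall, both passing, was found for 51 (26%), against 2.35% of all probe sets, although both tests share the 3 h arrays. The rise and the fall were each at least 1 unit for 18 members (9.18%), against 0.266% of all probe sets.

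Non-micropylar endosperm followed the later part of the micropylar course closely. It has no 1 h sample, so a rise there cannot be seen. From 3 h to 7 h, 172 of the 196 (87.8%) fell, against 15.9% of all probe sets, and 0 rose, against 16% of all probe sets; at an unadjusted p under 0.05 the counts were 178 and 0. The median change was -1.41, against -0.05 over all probe sets. AT2G13610 fell by 3.45 ± 0.20 (adjusted p = 3.83e-26) and AT3G46600 by 3.00 ± 0.26 (adjusted p = 1e-16). EPR1 fell there too, from 8.08 to 6.51, and its part in the result was not tested. From 7 h to 13 h, 95 of the 196 passed as lower, against 11.9% of all probe sets, and 5 as higher, against 10.3%. WRKY11 was among those higher, by 1.21 (adjusted p = 3.84e-05), as was EBF2, by 0.65 (adjusted p = 0.0215), and the remaining 3 have no listed symbol.

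The non-micropylar endosperm at 3 h held the highest of the 27 group means for 134 of the 196 (68.4%), against 7.97% of all probe sets. The micropylar endosperm at 3 h held it for 35 (17.9%), against 2.97%, but the rule chose members by a high level in that group. The median over the set was 6.88 ± 0.12 in non-micropylar endosperm at 3 h. It was 6.49 in micropylar endosperm, 5.24 ± 0.27 in cotyledons and 5.11 in radicle at the same time. At 3 h, 171 members (87.2%) were higher in non-micropylar endosperm than in cotyledons, against 13.1% of all probe sets, with a median difference of 1.43. The 2 that were lower, against 13.8% of all probe sets, have no listed symbol. BEE2, NIA1 and NIR1 had the largest differences of the members with a symbol. Across the set, 5 members (2.55%) were under the limit in every radicle and cotyledon stage, against 9% of all probe sets. These shares are not alike, since the rule leaves out probe sets that are dim everywhere. In micropylar endosperm at 3 h, 0 members were under the limit, against 24.9% of all probe sets.

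**Figure D3:**
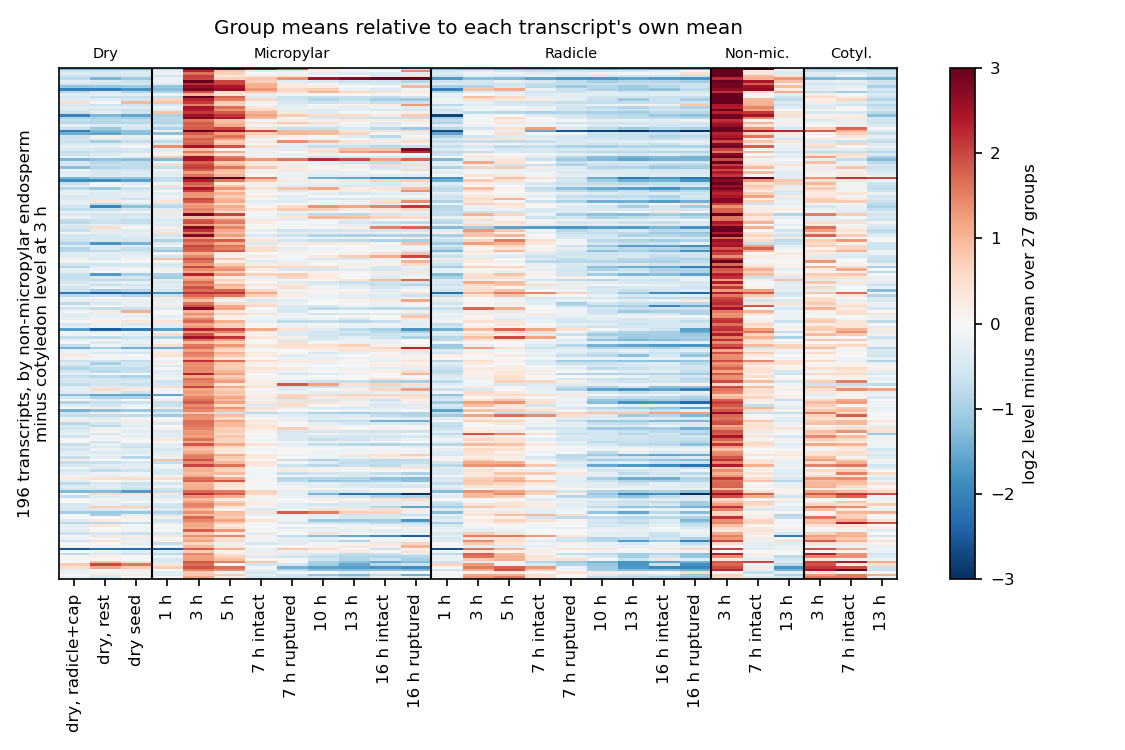
Group means of the 196 transcripts (rows) in 27 groups (columns), as log2 level minus the transcript's own mean over the groups, with colours ending at 3 units either way. Rows are ordered by non-micropylar endosperm minus cotyledon level at 3 h. The darkest red columns are micropylar and non-micropylar endosperm at 3 h, of which the first chose the rows.

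Cotyledons showed little change in the median of the set between 3 h and 7 h. Their change was not tested against that of the radicle. Of the 196, 27 (13.8%) fell, against 6.97% of all probe sets, and 14 (7.14%) rose, against 6.61%, with a median change of -0.04. The count that fell was 11 with the arrays of that comparison alone and 17 without replicate 1 at 3 h, so it depends on the estimate of the spread and on that array. The median of the set was 5.24 at 3 h and 5.23 at 7 h. From 7 h to 13 h, 100 members (51%) fell, against 8.18% of all probe sets, and 0 rose by the limma test, against 9.02%. At an unadjusted p under 0.05, 130 were lower and 1 higher, and 64 passed as lower with those arrays alone. HSP23.6 fell by 2.59 (adjusted p = 5.72e-18) and ZAT12 by 1.95 (adjusted p = 2.71e-07). The cotyledon median reached 4.45 at 13 h.

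The difference between tissues was tested directly. The change from 3 h to 7 h was lower in non-micropylar endosperm than in cotyledons for 156 of the 196, against 8.71% of all probe sets. It was higher for 0, against 9.21%, and at an unadjusted p under 0.05 for 175 and 0. Against the radicle it was lower for 116, against 5.15% of all probe sets, and higher for 1, against 4.4%, or 9.55% in either direction. These tests share the non-micropylar endosperm arrays. A fall in non-micropylar endosperm and in neither embryo part was found for 110 (56.1%), against 10.2% of all probe sets, which counts tests and is not itself a test of the difference. A fall in all 3 tissues was found for 20 (10.2%), against 1.77%. A fall in non-micropylar endosperm with a rise in cotyledons was found for 11, against 0.446%.

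**Figure D4:**
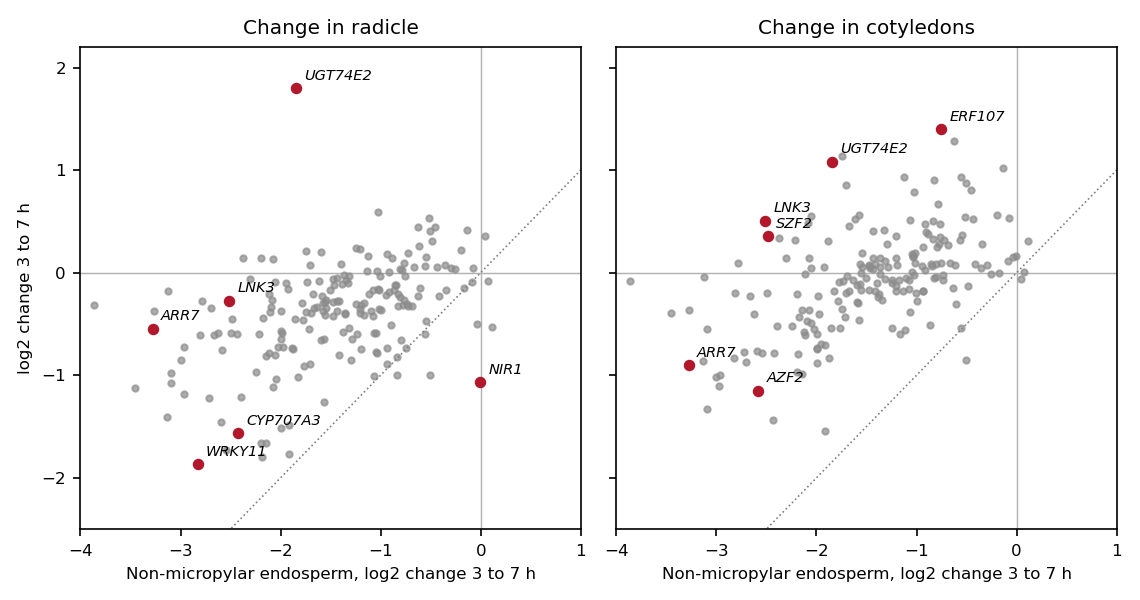
Log2 change from 3 h to 7 h of each of the 196 transcripts in radicle (left) and cotyledons (right) against the change in non-micropylar endosperm, with equal change on the dotted line. Most points lie left of the dotted line, and UGT74E2 lies high in both panels.

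Within micropylar endosperm, stages that the rule did not use showed the same decline. From 5 h to 7 h with a ruptured testa, 146 of the 196 (74.5%) fell, against 11.2% of all probe sets, with a median change of -0.99. The count was 128 without the first 5 h array, which stood apart. The 3 that rose, against 10.6%, have no listed symbol. HSP23.6 fell most among those with a symbol, from 7.25, 6.95, 7.72 and 6.70 to 4.17, 4.04, 4.25 and 3.74, by 3.11 ± 0.20 (adjusted p = 3.72e-23). UGT74E2 fell by 2.69 (adjusted p = 1.05e-12) and BEE2 by 2.38 (adjusted p = 3.3e-18). CYP707A3 did not pass (-0.24), and at ruptured 7 h it averaged 6.97, above the 5.87 of intact 7 h.

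Later stages moved few members, and few of all probe sets as well. From ruptured 7 h to 10 h, 2 rose, against 2.12% of all probe sets, and 8 fell, against 1.05%, among them BEE2 by 1.41 (adjusted p = 6.03e-08) and CYP707A2 by 0.95 (adjusted p = 0.0236). The sum of 10, against 3.17% of all probe sets, was 38 with array weights. It was 4 without replicate 2 of ruptured 7 h, and 6 without replicate 3 of that group or without replicate 1 or 3 of 10 h. CYP707A2 did not pass without any of these 4 arrays. From 10 h to intact 16 h, 5 rose, against 3.09%, and 12 fell, against 3.25%, or 6.34% in either direction. EBF2 rose by 0.85 (adjusted p = 0.00655), and NIR1 fell by 1.17 (adjusted p = 4.39e-06) and CYP707A3 by 1.13 (adjusted p = 0.00347). VNI2 fell by 1.02 (adjusted p = 0.00322), which did not pass with those arrays alone or without replicate 4 of intact 16 h.

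At 16 h, 18 members were higher in micropylar endosperm with a ruptured endosperm than with an intact one, against 3.34% of all probe sets, and 4 were lower, against 0.964%, or 4.3% in either direction. WRKY11 read 6.13, 6.53, 6.39 and 5.44 while intact and 7.70, 7.93, 7.30 and 8.24 after rupture, groups that did not overlap. It was higher by 1.67 ± 0.24 (adjusted p = 9.37e-08), and its mean of 7.79 there was above its 3 h mean of 7.17. NIA1 was higher by 1.04 (adjusted p = 0.00132), F5H by 0.96 (adjusted p = 3.88e-05) and EBF2 by 0.79 (adjusted p = 0.0164), while RGL2 was lower by 0.77 (adjusted p = 0.01). With the arrays of this comparison alone, 1 member passed and WRKY11, NIA1, F5H and RGL2 did not. The count of 22 fell to 12 without replicate 4 of the intact group and to 13 without replicate 4 of the ruptured group, where RGL2 did not pass. After rupture, 11 members (5.61%) stood above their 3 h level, against 46.3% of all probe sets, but that level chose the set.

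In the first hour the radicle showed little of this. Against dry radicle with cap, which also holds cap tissue, 0 members were higher at 1 h, against 1.51% of all probe sets, and 4 were lower, against 1.42% (2.94% in either direction), none of them with a listed symbol. At an unadjusted p under 0.05 the counts were 2 and 22. The 4 fell to 0 with array weights and with those arrays alone.

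**Figure D5:**
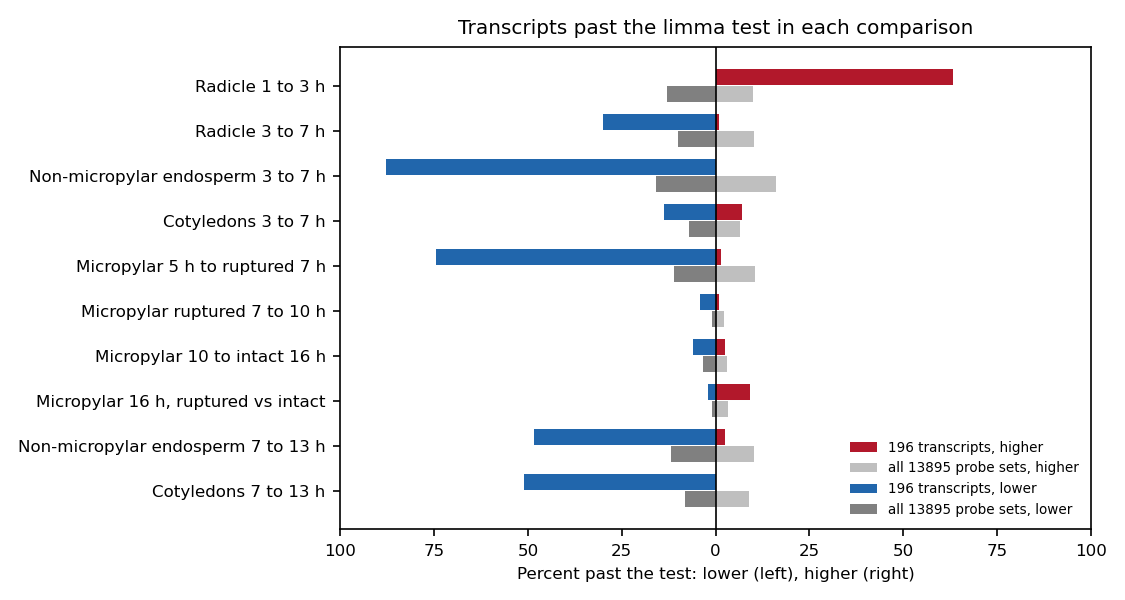
Percent of the 196 transcripts (colours) and of all 13895 probe sets (greys) that passed the limma test as lower (left) or higher (right) in 10 comparisons. The fall from 3 h to 7 h in non-micropylar endosperm reaches 87.8% and the rise from 1 h to 3 h in radicle 63.3%.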

How the data were processed

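Per the submitters' processing notes, the authors made the deposited log2 expression levels with affy and RMA. That method subtracts background, gives arrays a common distribution and merges each set's probes, so a change is relative to the bulk of transcripts and differences among dim probe sets shrink. Versions, array design and probe-set definition are not given in the sources used here. Depth has no meaning for arrays; values ran from 2.54 to 13.0 and array medians from 4.04 to 4.17. A single linear model held all 107 arrays and 27 group means, fitted with limma 3.58.1 under R 4.3.3. Its moderated test of each contrast had 80 degrees of freedom from the arrays plus 6.04 from the prior. P-values were adjusted by the Benjamini-Hochberg method across 13895 probe sets. No filter on low values was applied, so all 196 members were tested. The fit was tested on simulated data.

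The members, the 42 gene lists (1069 loci, 779 measured) and the tests were chosen with earlier results of these data known. Groups came from the sample labels. Symbols come from the lists, since the table pairs no names with its codes. Named genes were the 12 members with a symbol and the largest peaks, the members of each list with at least 2 of them (up to 6), the 3 largest passing changes without overlap in each direction of each comparison, 2 transcripts on each side of the threshold (by value where no symbol was listed), and the 2 codes without a symbol and with the largest peaks. The remaining members with a symbol, ABI3 and NIA2 were named after their values were seen. Alternatives tried were robust moderation with a trend on intensity, a brightness limit, centring on brighter probe sets, quantile normalization, array weights, only the arrays compared, a replicate block, single arrays left out, and other thresholds for the rule. Sequences were not used here.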

Additional observations from a re-analysis of the deposited data

Results flagged for a closer look

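Single arrays stood apart from the other 3 of their group in 6 of 158 groups of values tested, where chance gives about 1 in 20. CYP707A3 read 3.43 on replicate 2 of micropylar endosperm at 1 h, against 3.74 to 3.81, and 5.28 on replicate 3 of non-micropylar endosperm at 7 h, against 5.92 to 5.95. SZF2 read 3.97 on replicate 2 of radicle at 1 h, against 3.62 to 3.68, and 4.97 on replicate 2 at 3 h, against 4.01 to 4.16. WRKY3 read 4.63 on replicate 2 of micropylar endosperm at 1 h, against 4.25 to 4.31. BZIP28 read 8.57 on replicate 1 of micropylar endosperm at 5 h, against 8.16 to 8.21.

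The change from 3 h to 7 h differed between tissues, tested as an interaction in the limma fit. It differed between non-micropylar endosperm and cotyledons for 156 members, with LNK3 at -3.02, UGT74E2 at -2.93 and SZF2 at -2.84 (log2, endosperm minus cotyledons). It differed between non-micropylar endosperm and radicle for 117 members, with NIR1 at 1.06, UGT74E2 at -3.64, ARR7 at -2.73 and LNK3 at -2.24.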

How the results depend on the processing

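Of 761 values of named genes under the alternatives, 743 kept direction and side of the threshold, 18 no longer passed and 0 reversed. With array weights, the count of members was 38 from ruptured 7 h to 10 h (10 in the fit reported), 27 from 10 h to intact 16 h (17), and 0 in the first hour (4). With only the arrays compared it was 0 in the first hour, 11 for falls in cotyledons from 3 h to 7 h (27), 64 from 7 h to 13 h in cotyledons (100), and 1 at endosperm rupture (22), where all probe sets gave 30. Leaving out single arrays gave 4 to 11 from ruptured 7 h to 10 h, 12 to 24 at endosperm rupture, 17 to 31 for cotyledon falls from 3 h to 7 h and 1 to 4 in the first hour. The first hour gave 1 without DRYRC replicate 2 or radicle 1 h replicate 3, and 2 without DRYRC replicates 1 or 3 or radicle 1 h replicate 4. For the other comparisons leaving out single arrays stayed within 1.5 times the count. The rule itself gave 315 members at 0.8 units and 56 at 1.5, 214 after quantile normalization (189 shared), and 153 to 220 without single arrays of its 3 groups, the ends being replicates 1 and 2 at 3 h. The replicate numbers were not shown to pair samples: same-numbered deviations correlated between -0.537 and 0.578 over pairs of groups, and no comparison had every pair over 0.1. A replicate block gave 173 falls in non-micropylar endosperm (172), 60 in radicle (59) and 124 rises in radicle (124), and changed no call count by over 1.5 times where it was fitted. Dim signal limits some comparisons: both groups were under 3.59 for 35 members in the first hour of the radicle, 22 from 10 h to intact 16 h and 22 at endosperm rupture in micropylar endosperm, and 13 from 1 h to 3 h in radicle.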
